A study of Oryza sativa with 6 samples.

Results

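Transcripts that reached their lowest level in the long, branching lateral roots of rice (Oryza sativa) were described in both cultivars of the study. The members were chosen on the deposited scaled fragment counts with 1 added to each value. In each cultivar the L-type value had to be at most 1/1.5 of both the nodal and the S-type value. The nodal and S-type counts had to be at least 30 in both cultivars, and the IR29 and Mulai nodal values had to lie within 3-fold of each other. Loci were to be left out where S-type roots differed from nodal roots 2-fold or more in opposite directions in the cultivars, or 16-fold or more the same way in both. These clauses removed 0 loci, and 83 of 38042 loci in the table were members (0.218%). The counts of 30 or more held for 11789 loci and the nodal limit for 11595 of these, which are called eligible loci below.

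RNA came from nodal roots, S-type laterals and L-type laterals of the cultivars Mulai, labelled salinity tolerant, and IR29, labelled salinity sensitive. The 6 libraries are 1 of each cultivar and root type, so that no root type of a cultivar has a replicate. No salt treatment is named in the labels for any library, and all plants are described under 1 regime of day and night temperature and humidity. Neither plant age nor the number of plants per library is stated in the labels. The labels point each Mulai library to one group of older records and each IR29 library to another, so cultivar and batch cannot be told apart. Over eligible loci the median absolute log2 difference between the cultivars was 0.26 for nodal, 0.36 for S-type and 0.58 for L-type roots. Eligible loci were limited in their nodal ratio and in their nodal and S-type counts, but not in their L-type values. This order is thus not read as a likeness of the root types. Without the conditions on the IR29 L-type library the choice gives 230 loci, and without those on the Mulai L-type library 1406.

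Nodal roots are the shoot-borne main roots of the rice plant and carry the laterals. Laterals arise from pericycle and endodermis cells of the parent root. S-type laterals stay short and thin, stop growing early and bear no branches, while L-type laterals elongate and branch again. By growth habit an L-type lateral is thus often placed between a nodal root and an S-type lateral. A transcript that is lowest in L-type roots departs from that order. The table pairs its loci with no gene names, and 0 identifiers were found in the RefSeq gene table of 39387 rows (assembly ASM3414082v1), so that no function, position or sequence can be given for a member and the tissue labels could not be checked against marker genes.

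A minimum in the L-type roots of both cultivars was rare in comparison with a minimum in either other root type of both. The same comparison was made with the root types exchanged. It asked for a value at most 1/1.5 of both others in both cultivars. Counts of 30 or more were asked in the 4 libraries of the other root types. The 3-fold limit between the nodal values of the cultivars was kept in each case, also where nodal roots were the type compared. Nodal roots were lowest at 1266 of 11550 eligible loci (10.96%), and S-type roots were lowest at 1016 of 11855 (8.57%). L-type roots were lowest at 83 of 11595 (0.716%). For the opposite extreme, nodal roots were highest at 716 loci, S-type roots at 756 and L-type roots at 32. L-type roots were therefore the least frequent holder of either extreme in both cultivars. In Mulai alone, L-type roots were lowest at 230 loci, against 1818 for nodal and 1962 for S-type roots. The IR29 numbers lay closer together, at 1415, 2404 and 1981. For the highest value the L-type, nodal and S-type numbers were 266, 1002 and 1825 in Mulai, and 1004, 1654 and 1781 in IR29. Counted over both cultivars, a minimum was more frequent than a maximum in nodal, S-type and L-type roots alike. This order is thus not particular to L-type roots. In Mulai alone, L-type roots were highest at more loci than lowest. The limit of 30 was set on the other root types only. A lowest value could thus fall under 30, while the values below a maximum could not. The numbers of loci come from 1 library per cultivar and root type and carry no test.

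**Figure D1:**
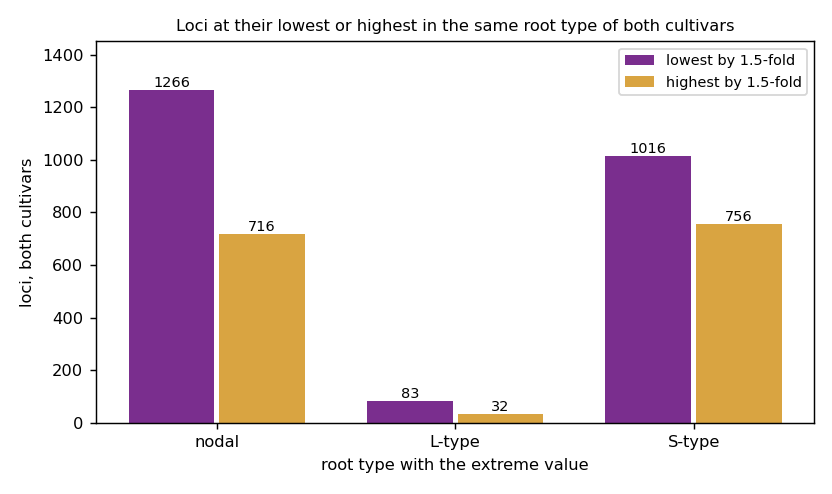
Number of loci (vertical axis) whose value was lowest or highest by at least 1.5-fold in the same root type of both cultivars, for nodal, L-type and S-type roots. Bars are counts of loci; the L-type bars stand at 83 and 32, against 716 to 1266 for the other root types.

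The members covered a wide range of abundance. In Mulai nodal roots the lowest member value was 35.5, the median 125 and the highest 7298 (scaled fragment counts). In Mulai S-type roots the corresponding values were 32.0, 134 and 12686. In Mulai L-type roots they were 16.2, 58.1 and 4485. The Mulai nodal and S-type medians were thus close to each other, and the L-type median lay below both.

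In IR29 nodal roots the lowest, median and highest member values were 32.3, 116 and 8097. In IR29 S-type roots they were 30.1, 87.2 and 6723. In IR29 L-type roots they were 3.51, 29.3 and 1717. The IR29 L-type library held the lowest median of all 6. The ranges overlapped between all libraries, and abundance differed far more among members than between root types.

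**Figure D2:**
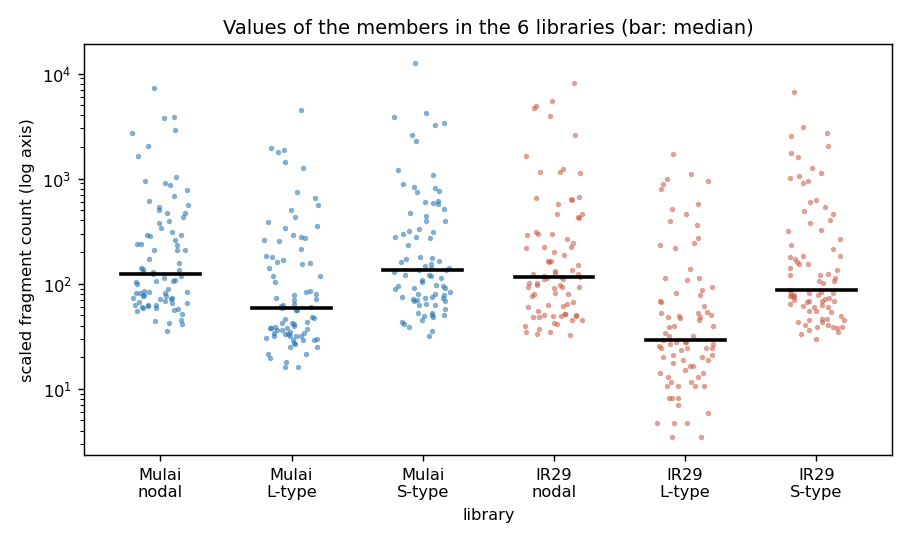
Scaled fragment count (log axis) of the 83 members in each of the 6 libraries, with points for members and a bar for the median. The medians of the L-type libraries, 58.1 in Mulai and 29.3 in IR29, lie under those of the nodal and S-type libraries, which run from 87.2 to 134.

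Together the members took 0.864% of all reads in Mulai nodal roots (exact 95% binomial interval 0.857 to 0.870) and 0.903% in Mulai S-type roots (0.896 to 0.911). Their share was 0.459% in Mulai L-type roots (0.453 to 0.464). In IR29 the share was 0.976% in nodal roots (0.967 to 0.986), 0.592% in S-type roots (0.585 to 0.5997) and 0.265% in L-type roots (0.260 to 0.271). The intervals cover counting error only. Abundant members weigh most in these sums. In Mulai nodal roots the highest member held 12142 of the 68289 member reads, where the median member had 208. In IR29 S-type roots it held 4471 of 24179, with a median of 58. In these bulk root samples, fewer cells of a type and less RNA per cell cannot be told apart.

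Members were less abundant than the loci from which they were drawn. Their median mean value over the 6 libraries was 93.5, against 214 for eligible loci. A mean value under 100 was found for 46 members (55.4%), against 20.0% of eligible loci. At the other end, 7 members had a mean value of at least 1000 (8.43%, against 7.46% of eligible loci). The L-type values that entered these means had been chosen to be low. In the nodal and S-type libraries the member medians also lay under those of eligible loci. They were 125 against 185 in Mulai nodal and 134 against 207 in Mulai S-type roots. In IR29 they were 116 against 188 in nodal and 87.2 against 211 in S-type roots.

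The library depths were 3891153 to 7904454 reads, recovered from the scaled values, and each Mulai library was deeper than each IR29 library. In IR29 L-type roots, the least sequenced of the 6, a member had between 3 and 1466 reads, with a median of 25, and 16 members had 10 reads or fewer. In Mulai L-type roots no member had fewer than 19 reads.

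The following folds were used by the choice of members and are given as a description. In Mulai the median member stood at 0.524 of its nodal value in L-type roots and at 0.478 of its S-type value. In IR29 the corresponding ratios were 0.337 and 0.373. Eligible loci had median ratios of L-type to nodal roots of 0.994 in Mulai and 1.04 in IR29, and of L-type to S-type roots of 0.926 and 0.990. The deposited scaling had already set the libraries to a common level, so that these medians serve as a reference only. The 2-fold mark was passed downward by 35 members for L-type over nodal roots in Mulai and by 71 in IR29. Among eligible loci the shares were 3.48% in Mulai and 16.4% in IR29, so that IR29 was the more extreme there too.

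**Figure D3:**
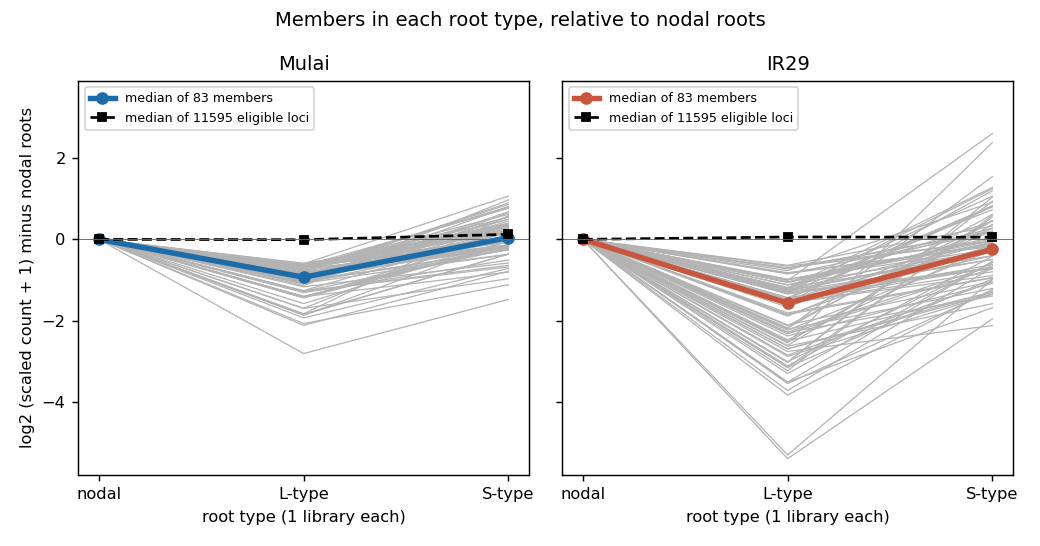
Log2 of the scaled count plus 1 in each root type minus the same in nodal roots, for Mulai (left) and IR29 (right), with 1 grey line per member. The coloured median of the members falls to -0.93 in Mulai and -1.57 in IR29 L-type roots, while the dashed median of eligible loci stays near 0.

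The gap, here the log2 distance from the L-type value up to the lower of the nodal and S-type values, measures how deep the minimum is. Its median was 0.76 in Mulai (1.69-fold) and 1.20 in IR29 (2.31-fold). The gap was larger in IR29 for 65 of 83 members and larger in Mulai for 18 (21.7%, against 55.1% of eligible loci). A gap of at least 2-fold was found for 25 members in Mulai, for 53 in IR29 and for 22 in both. Among eligible loci such a gap was found at 0.388% in Mulai and 6.68% in IR29. A gap of at least 2-fold was thus more frequent in IR29 among eligible loci too. Most eligible loci had no minimum in L-type roots, with median gaps of -0.29 in Mulai and -0.44 in IR29. Their 55.1% is therefore no background for the depth of a minimum, and the choice used these values. A gap of at least 4-fold was found for 0 members in Mulai and for 21 in IR29, and 7 members passed 8-fold in IR29. With 1 added to each value, the largest gap was 3.60-fold in Mulai and 20.0-fold in IR29.

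The depths of the minimum in the 2 cultivars were weakly related. Across the 83 members the gaps correlated at r = 0.36 (Spearman rho 0.26), a description over loci that share the same 6 libraries and were cut at 1.5-fold on both axes. The 7 members past 8-fold in IR29 had Mulai gaps from 0.60 to 1.85 on the log2 scale. Their median IR29 values were 225 (nodal), 134 (S-type) and 7.03 (L-type). The 7 members with a mean value of at least 1000 had smaller IR29 gaps, with a median of 0.90.

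**Figure D4:**
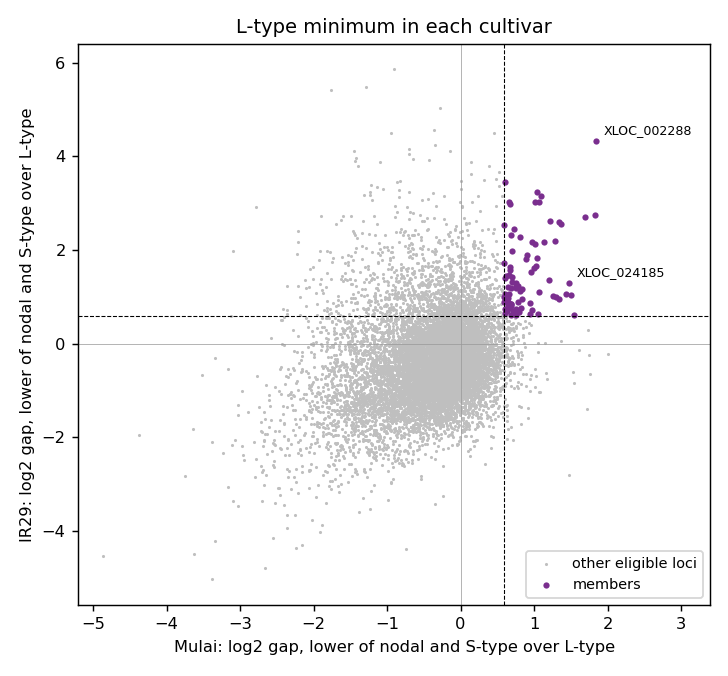
Log2 gap between the L-type value and the lower of the nodal and S-type values, Mulai on the horizontal and IR29 on the vertical axis, for members (purple) and other eligible loci (grey). Dashed lines mark 1.5-fold, which defines the members; the purple points reach 1.85 in Mulai and 4.32 in IR29.

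Many members stood close to the 1.5-fold limit. The largest of a locus's 4 ratios of L-type to nodal or S-type roots decides whether it is a member. The 3 members nearest the limit had largest ratios of 0.667, 0.666 and 0.665, and the 3 eligible loci just outside it had 0.668, 0.672 and 0.673. Between 0.6 and the limit lay 44 members, and between the limit and 0.75 lay 91 eligible loci that were not members. In 22 members the largest ratio was at most 0.5.

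The counting error of the 4 ratios is given as a description, since the choice held each ratio under the limit. In 73 of 83 members (88.0%) the exact 95% counting intervals of all 4 ratios lay under 1, and in 21 they all lay under the 1.5-fold limit. The other 10 members had at least 1 ratio whose interval reached 1. The ratio of L-type to S-type roots in IR29 was the least certain, with 77 intervals under 1. These intervals hold no variation between plants.

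The variance that the authors deposited with each value is far wider than counting error. Its square root was 57.3% of the value for the median member in Mulai nodal roots and 73.5% in IR29 L-type roots, against 53.8% and 53.6% for eligible loci. By that measure 16 members differed between L-type and nodal roots in Mulai by more than 1 combined SD and 0 by more than 2. In IR29 53 members passed 1 combined SD for L-type against nodal roots and 0 passed 2. What model gave the deposited variance is not stated.

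XLOC_002288 had the deepest minimum among members with a mean value of at least 100. Its scaled counts in nodal, S-type and L-type roots were 237, 233 and 64.1 in Mulai. In IR29 they were 225, 113 and 4.68, the last from 4 reads. Both L-type values lay under all 4 others, and the nodal values of the cultivars were nearly equal. The L-type value was 3.69-fold under the nodal value in Mulai (95% counting interval 2.88 to 4.79) and 48.0-fold under it in IR29 (18.4 to 178). Against S-type roots it was 3.64-fold lower in Mulai (2.80 to 4.77) and 24.1-fold lower in IR29 (9.02 to 90.7).

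XLOC_024185 followed. In nodal, S-type and L-type roots its scaled counts were 506, 393 and 140 in Mulai. In IR29 they were 266, 125 and 50.4. The L-type value was the lowest within each cultivar, but the IR29 S-type value lay under the Mulai L-type value. The L-type value was 2.81-fold under the S-type value in Mulai (95% counting interval 2.34 to 3.38) and 2.48-fold under it in IR29 (1.70 to 3.67). These intervals overlap between the cultivars.

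The most abundant member, given without its identifier, had scaled counts of 7298 (nodal), 12686 (S-type) and 4485 (L-type) in Mulai. In IR29 it had 8097, 6723 and 1717 in the same order. S-type roots exceeded nodal roots in Mulai, nodal roots exceeded S-type roots in IR29, and both L-type values lay lowest.

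Both L-type values lay under all 4 nodal and S-type values in 64 of 83 members (77.1%). The same held for 5.16% of eligible loci, a share that cannot be read against the members because the choice used these values. In the other 19 members the cultivars differed enough in level for a nodal or S-type value of one to reach the L-type value of the other. IR29 L-type roots held the lowest of the 6 values in 69 members and Mulai L-type roots in 14.

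A model with additive terms for cultivar and root type was applied to every locus past a filter on low values, which all 83 members passed. For L-type against nodal roots limma called 0 members at an adjusted p under 0.05, with 62 at an unadjusted p under 0.05. Over all 20316 loci the share called lower was 0.00984%. For L-type against S-type roots it called 0 members, with 60 at an unadjusted p under 0.05 and 0% of all loci called lower. edgeR called 0 members in either contrast, with 57 and 52 at an unadjusted p under 0.05. DESeq2 called 26 members lower than in nodal roots, beside 3.03% of all loci, and 19 lower than in S-type roots, beside 3.29%. The choice of members used both contrasts, so that nothing is read from these counts. Against nodal roots limma called 18 members lower without the Mulai L-type library, 5 without IR29 S-type and 2 without Mulai S-type, where 703, 311 and 269 of all 20316 loci were called lower. Against S-type roots it called 11 lower without Mulai L-type, where 408 of all loci were called lower.

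Loci chosen for their L-type minimum in one cultivar were read in the other, whose L-type values had then not been used. Its nodal and S-type values had been used in part, since eligible loci needed counts of 30 or more in both cultivars and nodal values within 3-fold. In Mulai alone, L-type roots were lowest by 1.5-fold at 230 eligible loci. Of these, 83 were also lowest in IR29 L-type roots, 36.1% (exact 95% interval over loci 29.9 to 42.7), against 12.2% of all eligible loci. This interval treats loci as independent although they share the same 6 libraries, so that it does not measure how the share would vary between plants. Their median ratio of L-type to nodal roots in IR29 was 0.626, and 165 of the 230 were below their nodal value (71.7%, against 47.3% of eligible loci). For L-type over S-type roots in IR29 the median ratio was 0.803, and 63.9% were below, against 50.8% of eligible loci. In the opposite direction, 17 of the 230 were highest by 1.5-fold in IR29 L-type roots (7.39%, against 8.66% of eligible loci). The list was not matched to eligible loci on the S-type over nodal fold. That fold correlated at r = 0.82 between the cultivars over eligible loci. What part of the 36.1% goes with it was not tested.

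In IR29 alone, L-type roots were lowest at 1415 eligible loci, against 230 in Mulai. The 83 shared loci were 5.87% of this list (interval over loci 4.70 to 7.22, with the same limit), against 1.98% of all eligible loci that were lowest in Mulai L-type roots. Read in Mulai, the list had a median ratio of L-type to nodal roots of 0.905, and 61.6% of it lay below nodal roots, against 50.6% of eligible loci. For L-type over S-type roots 57.3% lay below, against 57.1%. In the opposite direction, 37 of the 1415 were highest by 1.5-fold in Mulai L-type roots (2.61%, against 2.29% of eligible loci). The IR29 list as a whole was thus close to the background in its L-type to S-type ratio in Mulai. This list was not matched on the S-type over nodal fold either. Neither reading has a test, since each rests on 1 library per root type.

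S-type and nodal levels of the members lay close together in Mulai and spread more in IR29. The choice bounds this fold only at its extremes, but it also asks that both values stand above the L-type value. Called even where S-type and nodal values lay within 1.5-fold of each other, 64 members were even in Mulai (77.1%, against 46.7% of eligible loci) and 38 in IR29 (45.8%, against 42.1%). In both cultivars 28 were even. Nodal roots exceeded S-type roots by 1.5-fold or more at 8 members in Mulai and at 29 in IR29, with 5 in both. S-type roots exceeded nodal roots at 11 in Mulai and 16 in IR29, with 2 in both.

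The members therefore had no common order of nodal and S-type roots. The S-type over nodal fold had the same direction in both cultivars at 45 members and opposite directions at 38, of which 27 had their higher value in Mulai S-type but in IR29 nodal roots. The median absolute fold of the members in Mulai was 0.30 on the log2 scale, so that many of these directions rest on small differences. The folds of the cultivars correlated at r = 0.21 across the members (rho 0.21), against r = 0.82 across eligible loci, as a description. In Mulai the quartiles of the fold were -0.18 and 0.36 for members, against -0.53 and 0.73 for eligible loci. A range narrowed by the choice can lower r by itself, so that nothing is read from the lower r. In IR29 8 members were at least 2-fold higher and 15 at least 2-fold lower in S-type than in nodal roots, with extremes of 6.10 and 0.230 times the nodal value. In Mulai these counts were 1 and 2. For S-type against nodal roots limma called 0 members, with 2 at an unadjusted p under 0.05, beside 10.5% of all loci called higher and 10.2% called lower. edgeR called 0 members, with 8.9% of all loci called higher and 8.96% lower, and DESeq2 called 0, with 13.1% and 11.2%, each with 3 members at an unadjusted p under 0.05. Without Mulai S-type roots limma called 1 member higher, beside 2041 of all loci. It called 1 lower without Mulai L-type and 1 lower without IR29 L-type roots, beside 2968 and 2902 of all loci. The choice bounded this contrast, so that nothing is read from the absence of calls.

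The cultivars were most alike in the members' nodal level and least alike in their L-type level. The median ratio of IR29 to Mulai was 0.999 for nodal, 0.787 for S-type and 0.531 for L-type roots, against 1.02, 0.998 and 1.04 for eligible loci. IR29 was below Mulai at 42 members for nodal, 58 for S-type and 69 for L-type roots. A value at least 2-fold lower in IR29 was found for 4 members in nodal roots (4.82%, against 2.86% of eligible loci), for 16 in S-type roots (19.3%, against 4.67%) and for 38 in L-type roots (45.8%, against 15.1%). The choice held the nodal ratio within 3-fold and used the L-type and S-type values within each cultivar, so that these ratios are a description with no test. In the 38 members with the 2-fold lower L-type value in IR29, the median nodal ratio was 0.734 and the median S-type ratio 0.789.

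**Figure D5:**
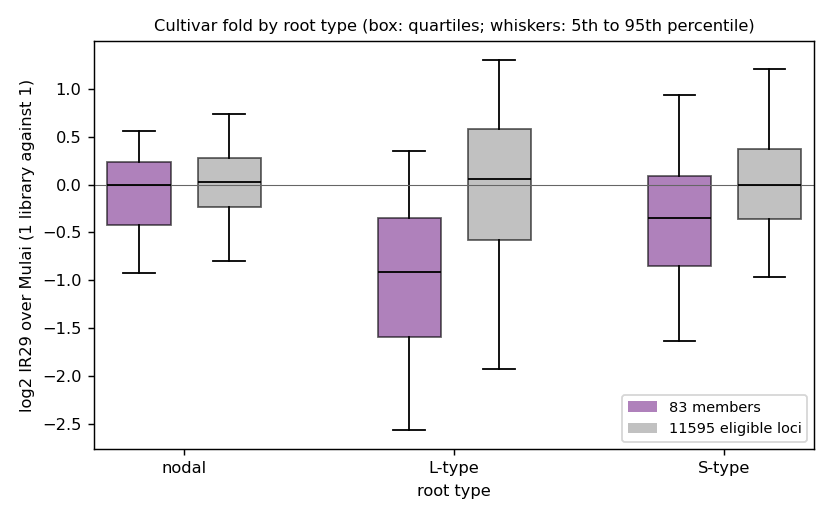
Log2 ratio of IR29 to Mulai in each root type, with members in purple and eligible loci in grey; boxes are quartiles, the line is the median and whiskers run from the 5th to the 95th percentile of loci. The medians of the members are 0.00 (nodal), -0.91 (L-type) and -0.35 (S-type).

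Over all 3 root types, limma called 3 members lower and 0 higher in IR29 than in Mulai (adjusted p under 0.05), with 15 at an unadjusted p under 0.05. The 3 members are 3.61% of the set, against 4.52% of all loci called lower and 2.86% called higher. The share lower lay near the background and is not a result about the members, and the choice kept out loci whose nodal values differed over 3-fold. edgeR also called 3 lower and 0 higher, beside 3.1% and 2.28% of all loci, and DESeq2 called 6 lower and 0 higher, beside 5.96% and 4.04% of all loci. The fitted median over the members was -0.46 on the log2 scale, against -0.04 over all 20316 loci. The fit averages the root types, where the members' median log2 ratios were -0.0019 (nodal), -0.35 (S-type) and -0.91 (L-type). The choice used the L-type values, so that nothing is read from the fitted median.

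XLOC_012683 had the largest called cultivar difference among members with a mean value of at least 100. Its scaled counts were 284 (nodal), 309 (S-type) and 104 (L-type) in Mulai, and 125, 60.2 and 28.1 in the same order in IR29. Each IR29 value lay under the Mulai value of the same root type. The IR29 nodal value lay above the Mulai L-type value, so that the cultivars overlapped over root types. It was 2.28-fold lower in IR29 nodal (95% counting interval 1.85 to 2.84), 5.13-fold lower in S-type (3.69 to 7.31) and 3.71-fold lower in L-type roots (2.38 to 6.01). In limma the change was -1.79 ± 0.32 on the log2 scale (SE, lower in 3 of 3 root types), with an adjusted p of 0.0235. The call was lost without any 1 of the libraries and without root type in the model, and the adjusted p ran from 0.000792 to 0.327 over 16 alternatives.

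XLOC_024185, described above for its minimum, was also lower in each IR29 library than in the Mulai library of the same root type. In limma its change was -1.34 ± 0.26 on the log2 scale (SE), with an adjusted p of 0.0299. The locus was 1.90-fold (nodal), 3.15-fold (S-type) and 2.78-fold (L-type) lower in IR29. Its call was lost under the same alternatives, with an adjusted p from 0.00481 to 0.633. The other called member, whose mean value of 93.5 is under the minimum set for naming, is given because only 3 passed. It had scaled counts of 207 (nodal), 161 (S-type) and 56.4 (L-type) in Mulai, and 92.2, 30.1 and 14.1 in IR29, with a change of -1.83 ± 0.37 on the log2 scale in limma (SE) and an adjusted p of 0.0381. This call was lost in 8 of 16 alternatives, namely without any 1 of the libraries, without root type in the model and with a filter at 50, and its adjusted p ran from 0.00386 to 0.471. All 3 had a nodal value above the S-type value by 2-fold or more in IR29 and within 1.5-fold of it in Mulai.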

How the data were processed

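Strand-specific mRNA libraries of 3 root types of 2 cultivars were compared, 1 library for each. The tools were TopHat2 2.0.11, Bowtie and Trimmomatic 0.32, then Cuffdiff 2.2.1 with Cufflinks 2.2.1, against the build IRGSP-1.0, per the submitters' processing notes. Options, annotation and strand handling are not stated, and reads shared by similar or overlapping loci were not assessed. The authors deposited a signal per locus, fragment counts multiplied by 1 factor per library, with a variance; the deposited assignment uncertainty is 0 throughout. In each library 100% of values above 0 were whole multiples of 1 read within 0.1 of a read, which gave back whole reads. The deposited variances, of unit other, were used as an authors' score of error only.

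Loci with at least 10 in at least 2 libraries (20316) were fitted as log2(value + 1) with limma 3.58.1 (R 4.3.3, trend), with cultivar and root type as terms and 2 residual degrees of freedom; fold changes on this scale understate low loci. The Benjamini-Hochberg adjustment ran over all loci, with a threshold of 0.05. The p-values measure the spread that these 2 terms leave between the libraries. With 1 library per cultivar and root type, no spread between like libraries is measured. The remaining spread holds differences between the cultivars in their root type folds, mixed with variation that may be technical. Intervals are exact (Clopper-Pearson or conditional binomial, scipy 1.17.1). edgeR 4.0.16 and DESeq2 1.42.0 were run on the recovered reads, and the procedure was tested on simulated data. The members and lists were chosen with earlier results of these data known. Loci are identified by assembly identifiers, at most 2 in each direction per comparison: the deepest minimum in both cultivars, or the largest fitted change with adjusted p under 0.05, at a mean value of at least 100 and 1 direction in all pairs of libraries.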

Additional observations from a re-analysis of the deposited data

Results flagged for a closer look

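The S-type over nodal fold of the members had a median of 0.043 on the log2 scale in Mulai and of -0.25 in IR29, opposite in sign, and the difference was not tested. The Mulai median was 0.00 with TMM scaling (IR29 -0.31). XLOC_012683 was higher in S-type than in nodal roots in Mulai (log2 fold 0.12) and lower in IR29 (-1.04), also without a test. With no replicate, library noise in either fold was not assessed.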

How the results depend on the processing

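Of 135 alternative values of counts and shares, 92 stayed within 1.5 times or within the exact interval over loci. These 92 include fits that called 0 members in a root type contrast, as the main fit did, from which nothing is read. The values that moved follow, and the cause was not tested beyond what each setting changes by construction. The 83 members became 272 with an L-type limit of 4/5 of both neighbours, 22 with 2-fold, 125 with a minimum of 10 and 32 with a minimum of 100, and 108 to 1406 when the conditions on 1 library were dropped (Mulai nodal 404, S-type 335, L-type 1406; IR29 nodal 108, S-type 148, L-type 230). TMM scaling gave 69 members, thinned reads 89. The share of the IR29 list that was lowest in Mulai (5.87%) was 12.8% at 4/5, 2.84% at 2-fold, 4.13% with a minimum of 100 and 3.93% for loci whose mean value was 200 or more, the last chosen after seeing the data; the share of all eligible loci was 6.45%, 0.388%, 1.33% and 1.08%. The share of the Mulai list that was lowest in IR29 (36.1%) was 48.9% at 2-fold (all eligible loci 6.68%). At 2-fold, 59 members were even in both cultivars, 0 had S-type and 2 nodal roots higher in both, and nodal roots were higher at 15 in IR29 and 2 in Mulai; with TMM, S-type roots were higher in both at 1. At 2-fold, nodal roots were lowest at 622 and highest at 196 loci, S-type roots at 465 and 278, and L-type roots highest at 5.

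Members called numbered 26 (DESeq2) and 1 (no filter) for L-type against nodal roots, 19 (DESeq2) for L-type against S-type roots, and 6 (DESeq2) and 0 (no root type term) for IR29 against Mulai. With each library left out in turn, the called members ranged from 0 to 1 (S-type against nodal), 0 to 18 (L-type against nodal), 0 to 11 (L-type against S-type) and 0 to 1 (IR29 against Mulai). The root type then left with a single library takes its spread from the rest. The called cultivar differences kept their direction in all alternatives run. With the cultivar term of the model or without it, limma called 0 members in each root type contrast. Root types were compared within a cultivar through that term. Beyond this, by replicate number, no paired analysis was possible because fewer than 2 numbers are shared between groups.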
